A study of Sus scrofa with 4 samples.

Results

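Transcripts of 9 genes of the insulin-like growth factor (IGF) axis were followed through the differentiation of porcine subcutaneous preadipocytes into adipocytes. They are the ligand IGF1, the receptors IGF1R and IGF2R, and the binding proteins IGFBP2, IGFBP3, IGFBP4, IGFBP5, IGFBP6 and IGFBP7. They are the protein-coding rows of the expression files that carry these symbols, and each symbol had exactly 1 row among 16192 protein-coding rows. Of the 9 genes, 8 were reliably expressed, meaning an FPKM (fragments per kilobase of gene model, scaled to library size) that reached 1 in 3 or more of the 4 libraries. The exception was IGFBP3. Across all protein-coding genes, 9191 met that rule.

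The cells were primary preadipocytes from the subcutaneous fat of 3 male Chinese Erhualian piglets in their first week of life, and rRNA-depleted total RNA was sequenced. D0 was the confluent culture before induction, and D2 followed exposure to a cocktail of dexamethasone, 3-isobutyl-1-methylxanthine and insulin. D4 followed maintenance in insulin, and D8 followed a return to growth medium. RNA of the 3 piglets was pooled at each stage, so each stage is 1 library, differences between piglets cannot be seen, and no difference below has a replicate check or a p-value. Stage and medium changed together, and their parts in a difference cannot be told apart. In such bulk samples, fewer cells of a type and less RNA per cell cannot be told apart either.

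IGF1 is a secreted peptide, made by fat stroma among other tissues, which signals through the tyrosine kinase receptor IGF1R and promotes growth, survival and adipogenic differentiation of preadipocytes. IGF2R, the cation-independent mannose 6-phosphate receptor, has no kinase and carries lysosomal enzymes and IGF2 into the cell. The secreted binding proteins hold IGFs away from IGF1R or deliver them to it, and proteases release the bound ligand.

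The files gave totals of 75387428, 54987801, 74358922 and 54128151 fragments behind the FPKM values at D0, D2, D4 and D8, worked out from the steps between low values. Each FPKM could therefore be turned into a number of reads, and 95% intervals below cover counting error only. Protein-coding genes took 70.9% to 78.8% of these totals, and signal recognition particle RNA took 12.4% to 17.1%, more at D2 and D8 than at D0 and D4. FPKM depends on this share, but with FPKM rescaled to the sum over protein-coding genes (TPM scaling) every member called up or down below stayed past 2-fold in the same direction. The culture followed its label in 6 of the 8 adipocyte markers, all that were reliably expressed. Each of the 6 exceeded D0 by 2-fold or more in every later library. Among all 9191 reliably expressed mRNAs, the share that did so was 6.67% for D2, 10.4% for D4 and 3.60% for D8. The paper also reported lipid droplets from D4 onwards and a build-up of triglyceride, which was not yet significant by D2. The summed FPKM of all 8 was 122, 484, 1715 and 2066 from D0 to D8. This includes CIDEC, which passed 1 FPKM only at D4 (5.01) and D8 (54.6), and LEP, which stayed at or below 0.314. The rise of the sum from D4 to D8 came mostly from FABP4 (853 to 1557 FPKM). At D8 against D4 only 1 of the 6 reliably expressed markers was higher, and the median log2 ratio was -0.91. CEBPA, PLIN1 and PPARG were at least 2-fold down in that comparison, where 10.1% of all genes were. Summed preadipocyte markers were at 199, 314, 270 and 154, with DLK1 not analysed here. Of other cell types, the 5 endothelial markers with a row (of 6) summed to 1.16 to 2.65 FPKM. Most of this was PECAM1, which was reliably expressed (2.56, 1.14, 1.70 and 1.87 FPKM from D0 to D8). VWF, CDH5 and KDR were at or below 0.05 and TEK at or below 0.058. The 5 immune markers with a row (of 6) summed to 3.54 to 8.03, mostly CD14, with PTPRC at or below 0.0712. The 4 epithelial or mesothelial markers with a row (of 5) summed to 3.47 to 4.89, mostly KRT19, which was reliably expressed (2.25 to 3.71). The 1 skeletal muscle marker with a row (of 4), MYOG, was at or below 0.03.

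IGF1 lies on chromosome 5 (81762027 to 81909253, plus strand, Sscrofa11.1, the build of all positions here). Its FPKM was 18.8 (D0), 49.1 (D2), 44.8 (D4) and 14.6 (D8), from 16928, 32290, 39862 and 9443 reads. The ligand was thus high in the 2 middle libraries and low in the first and last. IGF1 rose by 1.39 on the log2 scale at D2 against D0 (95% counting interval 1.36 to 1.41), which is 2.62-fold. From D2 to D4 the log2 ratio was -0.13 (-0.15 to -0.11). IGF1 then fell by 1.62 on the log2 scale at D8 against D4 (interval of the ratio -1.65 to -1.59), and its log2 ratio to D0 was then -0.36 (-0.40 to -0.33). Among reliably expressed mRNAs, IGF1 moved from percentile 71.4 at D0 to 88.3 at D2 and 86.9 at D4, and was at 68.2 at D8. Some marker levels were also high in the middle libraries. Of the 6 preadipocyte markers with a row, PDGFRA was at 75.8, 189, 149 and 60.8 FPKM from D0 to D8 and PDGFRB at 12.4, 20.9, 28.8 and 12.0, while NT5E (3.22, 1.10, 0.731 and 1.15) and THY1 (78.8 to 105) were highest at D0. ENG (1.89, 1.82, 2.46 and 0.933) and CD34 (0.126, 0.351, 0.391 and 0.123) were highest at D4. Over the 5 that were reliably expressed, 1 was up and 1 down at D2 against D0, beside 6.67% and 10.1% of all genes. Their median log2 ratio was -0.06. At D8 against D4, 3 of the 5 were down (ENG, PDGFRA and PDGFRB), beside 10.1% of all genes, and the median was -1.26. Of the 5 immune markers with a row, CD14 was at 3.14, 5.64, 7.54 and 2.78 FPKM, while PTPRC was lower at D2 and D4 than at D0 and D8 and AIF1 was highest at D8 (1.05). The part of these cells in the IGF1 and IGF2R results was not tested.

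IGF1R, the signalling receptor, lies on chromosome 1 (137383623 to 137691038, minus strand). It was at 2.16 FPKM (D0), 1.21 (D2), 1.35 (D4) and 1.48 (D8), from 2009, 825, 1242 and 988 reads. D0 was the highest library and the other three sat close together. The log2 ratio was -0.82 (-0.95 to -0.71) at D2 against D0, short of 2-fold, and -0.54 (-0.66 to -0.44) at D8 against D0. IGF1R was low among expressed genes throughout, from percentile 15.3 at D0 to 3.45 at D4.

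IGF2R lies on the same chromosome (7369485 to 7472480, minus strand). Its FPKM was 2.15 (D0), 4.44 (D2), 5.40 (D4) and 2.22 (D8), from 1228, 1846, 3037 and 907 reads. As with IGF1, the middle libraries were high and the outer ones low. IGF2R rose by 1.04 on the log2 scale at D2 (0.94 to 1.15), a call whose interval reaches below 2-fold, and by 1.32 at D4 against D0 (1.23 to 1.42). At D8 it fell by 1.28 on the log2 scale against D4 (ratio -1.39 to -1.18), and its ratio to D0 was 0.04 (-0.08 to 0.17), which is within counting error. The level ratio of IGF2R to IGF1R therefore stood at 0.999 (D0) and 3.66 (D2), was higher still at D4, and lay between its D0 and D2 values at D8.

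The insulin receptor INSR, the closest relative of IGF1R and able to form hybrid receptors with it, showed the IGF2R shape at a larger size. Its FPKM was 1.11, 3.61, 5.68 and 1.39 from D0 to D8. INSR rose by 1.70 on the log2 scale at D2 and fell by 2.02 at D8 against D4. The ratio of INSR to IGF1R was 0.513 (D0), 2.98 (D2), 4.21 (D4) and 0.943 (D8), so that INSR mRNA was the lower of the 2 per length at D0 and the higher at D2 and D4. At D8 their intervals overlapped (1.25 to 1.55 FPKM for INSR and 1.39 to 1.57 for IGF1R), and they could not be ordered.

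**Figure D1:**
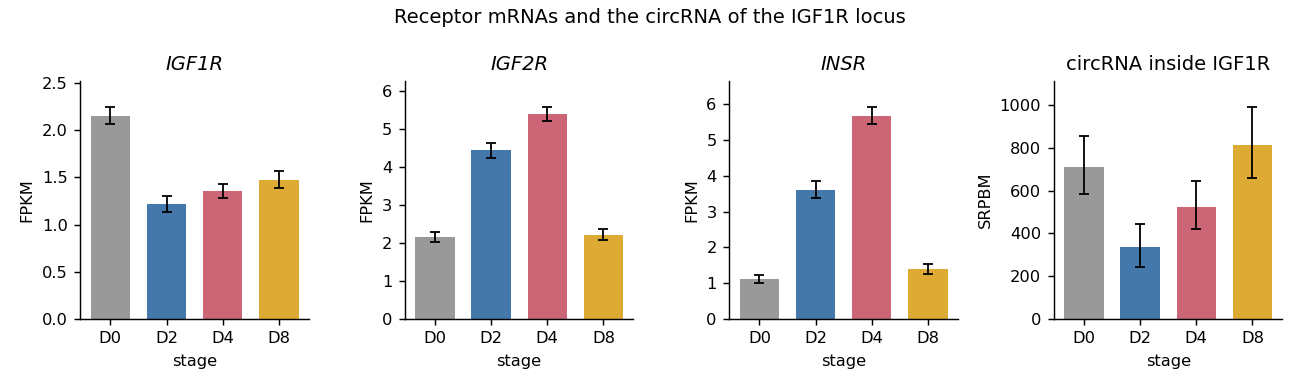
FPKM of the receptor mRNAs IGF1R, IGF2R and INSR, and SRPBM (back-splice junction reads scaled to library size) of the circRNA inside IGF1R, at D0, D2, D4 and D8, with 1 pooled library per bar and 95% counting intervals. IGF2R and INSR peak at D4 at 5.40 and 5.68 FPKM, whereas IGF1R is highest at D0 at 2.16 FPKM and the circRNA is lowest at D2.

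IGFBP2 lies on chromosome 15 (118822092 to 118850985, plus strand) and encodes a binding protein secreted by preadipocytes. Its FPKM was 232.9 (D0), 233.7 (D2), 242.2 (D4) and 266.0 (D8), with at least 17798 reads in each library. It was the highest of the 9 genes in every library, at percentiles 97.2 to 97.5 of expressed mRNAs. Its highest level was 1.14 times its lowest, and the log2 ratio of D8 to D0 was 0.19 (0.16 to 0.22).

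IGFBP5 is the neighbour of IGFBP2 on chromosome 15 (118861816 to 118877787, minus strand), with 10830 bases between their facing 3′ ends. It binds IGFs and also extracellular matrix. Its FPKM was 29.0 (D0), 5.98 (D2), 6.05 (D4) and 28.7 (D8), from 2115, 318, 435 and 1503 reads. The middle libraries were low and the outer ones high, the reverse of IGF1 and IGF2R. IGFBP5 fell by 2.28 on the log2 scale at D2 (ratio -2.45 to -2.11), which is 4.85-fold, and was level from D2 to D4 within counting error (0.02, -0.20 to 0.23). At D8 it rose by 2.24 on the log2 scale against D4 (2.09 to 2.40), and its ratio to D0 was -0.01 (-0.11 to 0.08). The level ratio of IGFBP2 to IGFBP5 across this shared locus was 8.03 (D0), 39.1 (D2), 40.0 (D4) and 9.27 (D8).

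IGFBP4, generally an inhibitor of IGF action, lies on chromosome 12 (21966524 to 21980043, minus strand). It was at 97.4 FPKM (D0), 157.1 (D2), 117.9 (D4) and 98.7 (D8), from 5730, 6739, 6841 and 4165 reads. Its peak was at D2, with a log2 ratio to D0 of 0.69 (0.64 to 0.74), short of 2-fold, and D8 was within counting error of D0 (0.02, -0.04 to 0.08). The shortest gene length that turned its FPKM into whole reads was 780 bases, the lowest of the 9, against 12357 for IGF1R. The gene models themselves may be multiples of these lengths, and levels per length rest on the models.

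IGFBP7, which binds IGFs weakly and insulin more readily than its relatives, lies on chromosome 8 (56283089 to 56357822, minus strand). Its FPKM was 127.9 (D0), 134.7 (D2), 101.8 (D4) and 137.2 (D8), from 10800, 8297, 8481 and 8316 reads. D4 was its lowest library, with log2 ratios of -0.33 (-0.37 to -0.29) to D0 and, for D8 against D4, 0.43 (0.39 to 0.47). POLR2B, an RNA polymerase II subunit gene on the opposite strand, overlaps its 3′ end and was at 16.8 to 25.2 FPKM.

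IGFBP6, which prefers IGF2 over IGF1, lies on chromosome 5 (18352884 to 18357225, plus strand). It was at 7.82 FPKM (D0), 4.83 (D2), 5.64 (D4) and 7.06 (D8), from 892, 402, 634 and 578 reads. It was lowest at D2 and higher at both ends, the order also seen in IGFBP5 but at a smaller size. Its log2 ratio was -0.69 (-0.87 to -0.52) at D2 against D0 and 0.32 (0.16 to 0.49) at D8 against D4, neither reaching 2-fold.

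IGFBP3, the main IGF carrier of the circulation, lies on chromosome 18 (50002921 to 50009425, plus strand). Its FPKM was 0.313 (D0), 0.677 (D2), 1.31 (D4) and 0.336 (D8), from only 26, 41, 107 and 20 reads. D4 was its highest library, with a log2 ratio to D0 of 2.03 (1.43 to 2.74). It stood outside the counts below because it reached 1 FPKM in 1 library.

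**Figure D2:**
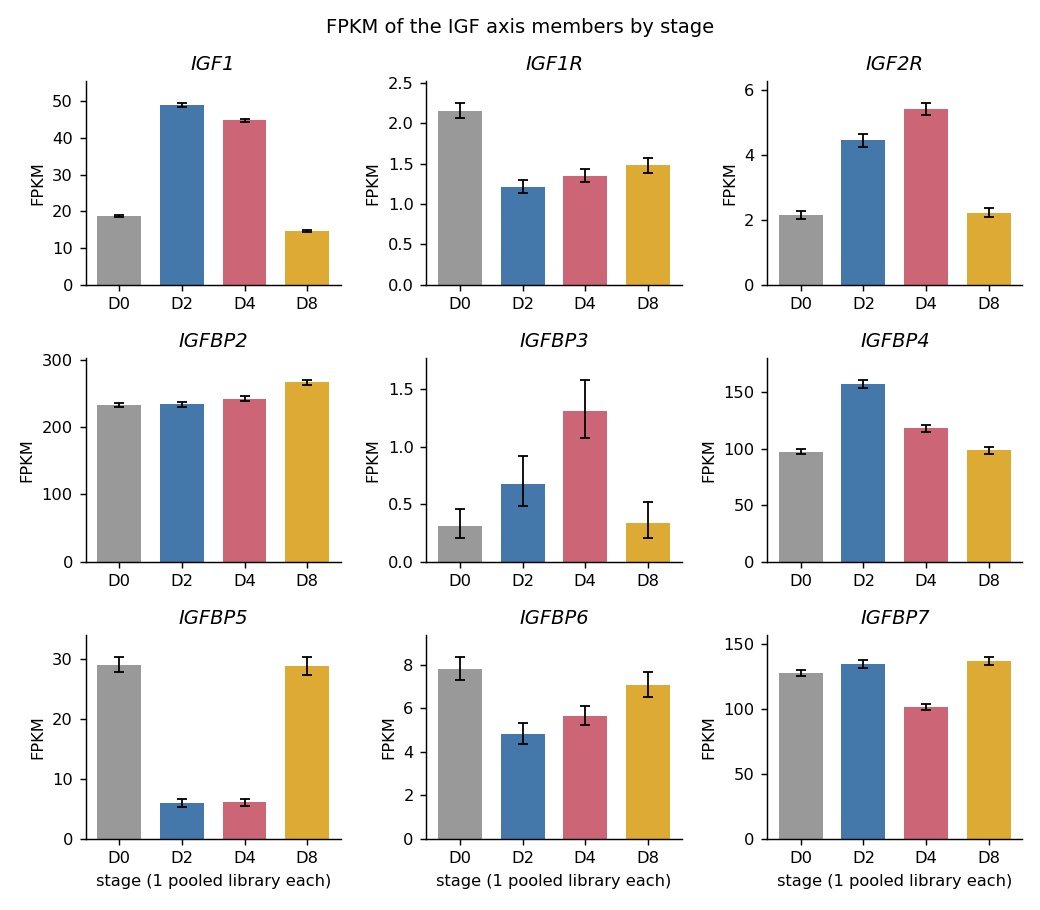
FPKM of the 9 genes at D0, D2, D4 and D8, each panel with its own linear axis from 0, bars for 1 pooled library each and 95% counting intervals. IGF1 and IGF2R are high at D2 and D4, IGFBP5 is at 5.98 and 6.05 FPKM there against 29.0 and 28.7 at D0 and D8, and IGFBP2 lies between 232.9 and 266.0 throughout.

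In order of level, IGFBP2 came first in every library, and IGFBP4 and IGFBP7 held the next places. IGFBP7 was above IGFBP4 at D0 and D8, and IGFBP4 was above IGFBP7 at D2 and D4. IGFBP5 stood above IGF1 at D0 and D8 and below it at D2 and D4. Several neighbours lower in the order could not be separated by counting error: IGF1R and IGF2R at D0 (intervals 2.06 to 2.25 and 2.04 to 2.28 FPKM), IGFBP6 and IGF2R at D2, and IGFBP5, IGFBP6 and IGF2R at D4. At D4 IGFBP3 also reached the level of IGF1R, with intervals of 1.07 to 1.58 and 1.28 to 1.43 FPKM.

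The FPKM summed over IGFBP2 to IGFBP7 was 495 (D0), 537 (D2), 475 (D4) and 538 (D8). The total thus varied far less than IGFBP5 did within it. IGFBP2 made up 47.0%, 43.5%, 51.0% and 49.5% of the sum from D0 to D8. IGFBP7 made up 25.8%, 25.1%, 21.4% and 25.5%, and IGFBP4 19.7%, 29.3%, 24.8% and 18.3%. The share of IGFBP5 moved the most relative to its own size among the reliably expressed genes, at 5.86% (D0), 1.11% (D2), 1.27% (D4) and 5.34% (D8). IGFBP6 stayed between 0.900% and 1.58%, and IGFBP3 between 0.062% and 0.275%. Against the ligand, the FPKM of IGFBP2 to IGFBP6 together was 19.6 (D0), 8.20 (D2), 8.33 (D4) and 27.5 (D8) times that of IGF1. These are ratios of transcripts and give no amount of secreted protein.

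**Figure D3:**
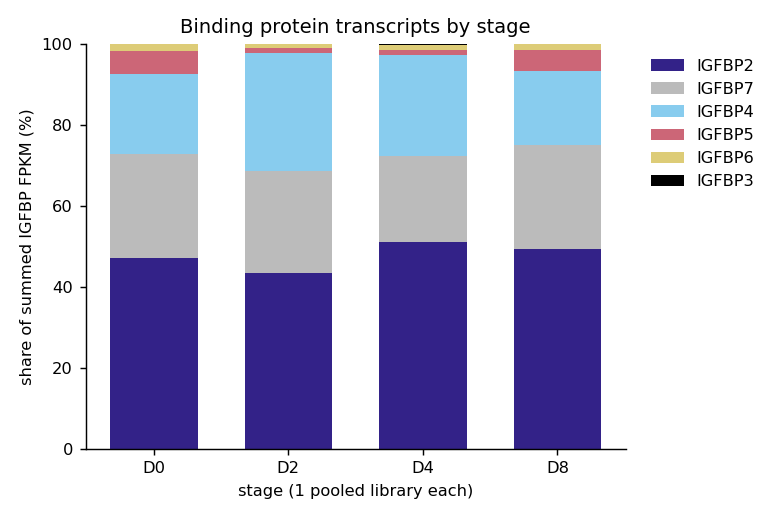
Share of each binding protein gene in the FPKM summed over IGFBP2 to IGFBP7 at D0, D2, D4 and D8 (stacked bars, 1 pooled library each, in percent). IGFBP2 holds 43.5% to 51.0% of the sum, and the IGFBP5 band narrows from 5.86% at D0 to 1.11% at D2 and widens to 5.34% at D8.

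Set against all reliably expressed mRNAs, 2 of the 8 members (IGF1 and IGF2R) were at least 2-fold up at D2 against D0, where 6.67% of 9191 genes were, and 1 (IGFBP5) was at least 2-fold down, where 10.1% were. The median log2 ratio of the 8 was 0.04 and that of all genes -0.03. Between D2 and D4, 0 of the 8 passed 2-fold either way, beside a background of 4.24% up and 0.838% down. The medians were 0.03 for the members and 0.09 for all genes.

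At D8 against D4, IGFBP5 was up (1 of 8, background 4.43%) and IGF1 and IGF2R were down (2 of 8, background 10.1%). The median of the members was 0.13 and that of all genes -0.21. All genes split 407 up to 928 down as deposited, and 576 up to 559 down once libraries were scaled by their median ratio, under which IGF1, IGF2R and IGFBP5 kept log2 ratios of -1.42, -1.08 and 2.44. The members past 2-fold between D2 and D0 and those between D8 and D4, comparisons that share no library, were the same 3 genes, each in the opposite direction. Such reversals were common among all genes: 298 of the 613 genes up at D2 against D0 (48.6%) were among the 928 down at D8 against D4 (32.1% of those), and 286 of the 932 down (30.7%) were among the 407 up (70.3%), so nothing particular to the members is read from it.

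At D4 against D0, IGF1 and IGF2R were up (2 of 8, background 10.4%) and IGFBP5 was down (1 of 8, background 8.81%), with a median of -0.14 for the members and 0.06 for all genes. At D8 against D0, 0 of the 8 passed 2-fold, beside 3.60% of all genes up and 3.68% down. All 8 were thus within 2-fold of their D0 level at D8, IGF1R at -0.54 being the farthest. The members' median was 0.00, while that of all genes was -0.18, with 331 genes up and 338 down as deposited and 406 up and 204 down after median-ratio scaling. That scaling turned 2 small D8 against D0 ratios from below 0 to above it, IGFBP5 from -0.01 to 0.14 and IGFBP6 from -0.15 to 0.01, and turned D4 against D2 for IGFBP2 from 0.05 to -0.03 and for IGFBP5 from 0.02 to -0.06. The D0 library enters 3 of the 5 comparisons and the D4 library 3, so these comparisons are not independent of each other.

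**Figure D4:**
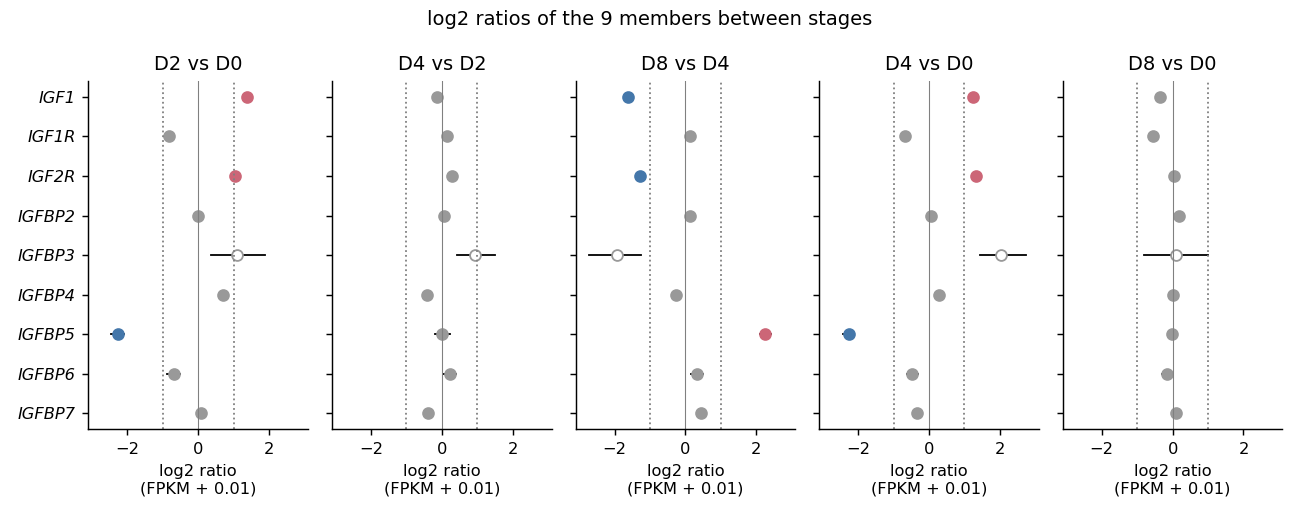
log2 ratios of FPKM + 0.01 of the 9 genes in 5 comparisons of stages, with 95% counting intervals as lines and dotted lines at 2-fold; red marks at least 2-fold up, blue at least 2-fold down, and the open circle is IGFBP3, which was not reliably expressed. IGF1 and IGF2R lie right of 1 at D2 vs D0 and left of -1 at D8 vs D4, IGFBP5 does the reverse, and no filled point passes 2-fold at D4 vs D2 or D8 vs D0.

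Genes with the most similar profile were sought among 4732 mRNAs that reached 1 FPKM in every library and 10 FPKM in one or more, by the root mean square difference of centred log2 values over the 4 libraries. With 4 points and so many candidates, close profiles are a description of these libraries only. Nearest to IGF1 were PTK7 (0.04), a pseudokinase receptor, then PCSK5 (0.08), a proprotein convertase, and ANKRD10 (0.09). PTK7 was at 30.9, 77.7, 76.5 and 24.4 FPKM from D0 to D8, higher than IGF1 in each library and, like it, high at D2 and D4. Nearest to IGF2R were MAN2B1 (0.03), the lysosomal alpha-mannosidase, TOP1 and USP19. Nearest to IGF1R were IPO5, PCM1 and ACTR1A, all at 0.03.

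Nearest to IGFBP5 were PLS3 (0.08), an actin bundling protein, ARHGEF25 (0.12) and USP53 (0.13). STC2, whose product inhibits the IGFBP protease PAPPA, was the 9th nearest at 0.18. The flat IGFBP2 was closest to the ribosomal protein gene RPL21 (0.01), then GLA and FAM45A (0.03 each). IGFBP7 was closest to ALDH1L2 (0.02), XBP1 and GSR (0.05 each), and IGFBP4 to TMEM39A (0.04), PIGH and TSTD3 (0.05 each). IGFBP6 was closest to PITPNB (0.03), LOC100739163 (0.03) and LRRC40 (0.04), and IGFBP3 to RHOJ (0.09), PTPN1 (0.11) and ADAMTS9 (0.12). Among the members, the closest pairs were IGF1R with IGFBP6 (0.14), IGFBP2 with IGFBP7 (0.17) and IGFBP2 with IGFBP6 (0.26). IGF1 and IGF2R differed by 0.27. Genes that vary little lie close by this measure whatever their shapes. The standard deviation of the centred log2 values was 0.08 for IGFBP2, 0.17 for IGFBP7 and 0.27 for IGFBP6. Among the candidates, IGFBP7 was the 913th nearest to IGFBP2, IGFBP2 the 1372nd nearest to IGFBP6 and IGF1 the 286th nearest to IGF2R.

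Other RNAs of the same loci were read from the lncRNA and circRNA rows. A circular RNA of 546 bases, ssc_circ_0000197, lies inside IGF1R on its strand (chromosome 1, 137638041 to 137638586). Its SRPBM was 712 (D0), 334 (D2), 522 (D4) and 815 (D8), from 111, 46, 88 and 97 junction reads, and it ranked 33rd, 125th, 55th and 23rd among 2172 reliably detected circRNAs. The circRNA was lowest at D2, as the mRNA was, with a log2 ratio to D0 of -1.09 (-1.62 to -0.58). Unlike the mRNA, it was back at its D0 level at D8 within counting error (0.19, -0.21 to 0.60). Per 100 reads of the gene the junction reads numbered 5.53 (D0), 5.58 (D2), 7.09 (D4) and 9.82 (D8). No interval was computed for these ratios, which rest on the few junction reads given above. In rRNA-depleted total RNA the reads of the gene may include reads from the circle, so the 2 may not be separate readouts. A circRNA inside IGF2R, ssc_circ_0000789, had 0, 5, 0 and 6 junction reads, too few to compare with its gene.

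On the strand opposite to IGF1, the antisense transcript MSTRG.54102 overlaps the start of the gene and was at 0.279, 0.615, 1.28 and 0.963 FPKM from D0 to D8. It was highest at D4 and, unlike IGF1, still above its D0 level at D8. The lncRNAs LOC110260785 and LOC110260784, inside IGF1 on the opposite strand, were at or below 0.204 FPKM. The library kit kept strand, but whether counting used it is not given in the sources used here. Within 4 kb downstream of IGFBP4, on its strand, lie the lncRNAs MSTRG.103140 (12.0, 13.7, 9.36 and 7.45 FPKM from D0 to D8) and MSTRG.103138 (7.92 to 18.2 FPKM). Both had their highest value at D2, as IGFBP4 did, and their lowest at D8. These lncRNAs overlap each other on that strand, so their values may not be separate observations.

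The rest of the pathway was described with a list of 88 genes, of which 83 had a row and 66 were reliably expressed. Of the 66, 10 were at least 2-fold up and 7 down at D2 against D0, beside 6.67% and 10.1% of all genes, with a median log2 ratio of -0.23 against -0.03 for all genes. At D4 against D2, 5 were up and 0 down, beside 4.24% and 0.838%. At D8 against D4, 5 were up and 11 down, beside 4.43% and 10.1%, where the split of all genes changed with median-ratio scaling, as given above. At D4 against D0, 13 were up and 8 down, beside 10.4% and 8.81%, and at D8 against D0, 5 were up and 3 down, beside 3.60% and 3.68%. Nothing particular to the list is read from these counts.

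The second ligand, IGF2, was low, at 0.724, 1.06, 0.575 and 0.393 FPKM from D0 to D8. The level of IGF1 was 25.9 times that of IGF2 at D0 and 78.0 times at D4. The growth hormone receptor GHR, which drives IGF1 transcription in liver and fat, was at 0.299, 1.88, 4.69 and 2.43 FPKM. GHR rose by 2.61 on the log2 scale at D2 and remained above D0 at D8 (2.98), where IGF1 did not. CISH, a feedback inhibitor of that receptor, was at 0.225, 3.49, 8.14 and 3.09 FPKM and passed 2-fold in all 5 comparisons. SOCS3, another feedback inhibitor, peaked at D2 (7.09, 21.1, 11.7 and 1.81 FPKM) and fell by 2.68 on the log2 scale at D8 against D4.

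Of the remaining genes listed as related to the binding proteins, not all of which encode IGF binders, KAZALD1 was at 0.597, 1.54, 7.13 and 4.26 FPKM. KAZALD1, an IGFBP-related protein, rose by 3.56 on the log2 scale at D4 against D0. ESM1 was not reliably expressed (0.176 to 1.84 FPKM, highest at D0). IGFALS, the acid-labile subunit of the circulating IGF complex, stayed at or below 0.172 FPKM and IGFBPL1 at or below 0.048. IGFBP1 was not analysed here.

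Of the 10 proteases that cleave binding proteins and inhibitors of those proteases, 7 were reliably expressed. STC2 was at 25.1 FPKM (D0), 6.87 (D2), 5.55 (D4) and 23.9 (D8). Like IGFBP5, it was low in the middle libraries, falling by 1.87 on the log2 scale at D2 and rising by 2.10 at D8 against D4. PAPPA itself, which cleaves IGFBP4 and IGFBP5, stayed between 3.96 and 7.27 FPKM with no ratio past 2-fold. HTRA1, a secreted serine protease, was the most abundant of the 10 at 210 to 270 FPKM, a level close to that of IGFBP2. Its relative HTRA3 was at 4.11, 4.02, 5.41 and 0.895 FPKM and fell by 2.58 on the log2 scale at D8 against D4. ADAM12 fell by 1.48 on that scale in the same comparison. CTSD (11.5 to 22.7 FPKM) and PRSS23 (20.9 to 39.8) did not pass 2-fold, and STC1 (0.529 to 2.20 FPKM), ADAM28 (0.149 to 0.314) and PAPPA2 (at most 0.065) were not reliably expressed.

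Downstream of the receptors, the list genes that passed 2-fold in at least 3 comparisons differed in shape. FOXO1 (2.42, 4.96, 7.23 and 3.29 FPKM from D0 to D8) and FOXO3 (1.34, 5.43, 8.06 and 2.28), transcription factors that AKT keeps out of the nucleus, were high in the middle libraries. So was PTPN1, a phosphatase that acts on INSR and IGF1R, at 5.38, 11.2, 20.1 and 4.74 FPKM. The adaptor IRS1 was high at D4 alone (1.39, 1.26, 3.18 and 1.55 FPKM). The PI3K subunit PIK3R1 (2.91, 7.90, 14.8 and 8.61 FPKM) and the kinase SGK1 (9.64, 57.2, 47.5 and 26.0) were at least 2-fold above D0 at D2, D4 and D8. Lower values in the middle libraries were seen in HRAS (31.8, 11.8, 8.50 and 21.2 FPKM), in its negative regulator RASA1 (10.7, 4.26, 4.20 and 9.87) and in the death agonist BAD (26.6, 12.7, 9.03 and 18.1). SGK1 was also on a list of glucocorticoid targets. Of the 6 reliably expressed genes of that list, 5 were at least 2-fold up at D2, beside 6.67% of all genes. At D8 against D0, where no member passed 2-fold, 5 were up, beside 3.60% of all genes. Their shapes differed: FKBP5 was at 4.88, 61.2, 77.4 and 38.6 FPKM and TSC22D3 at 3.26, 33.5, 23.6 and 31.7. DUSP1 was highest at D0 (109, 99.3, 60.8 and 62.3). The part of the hormones in the IGF results was not tested.

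**Figure D5:**
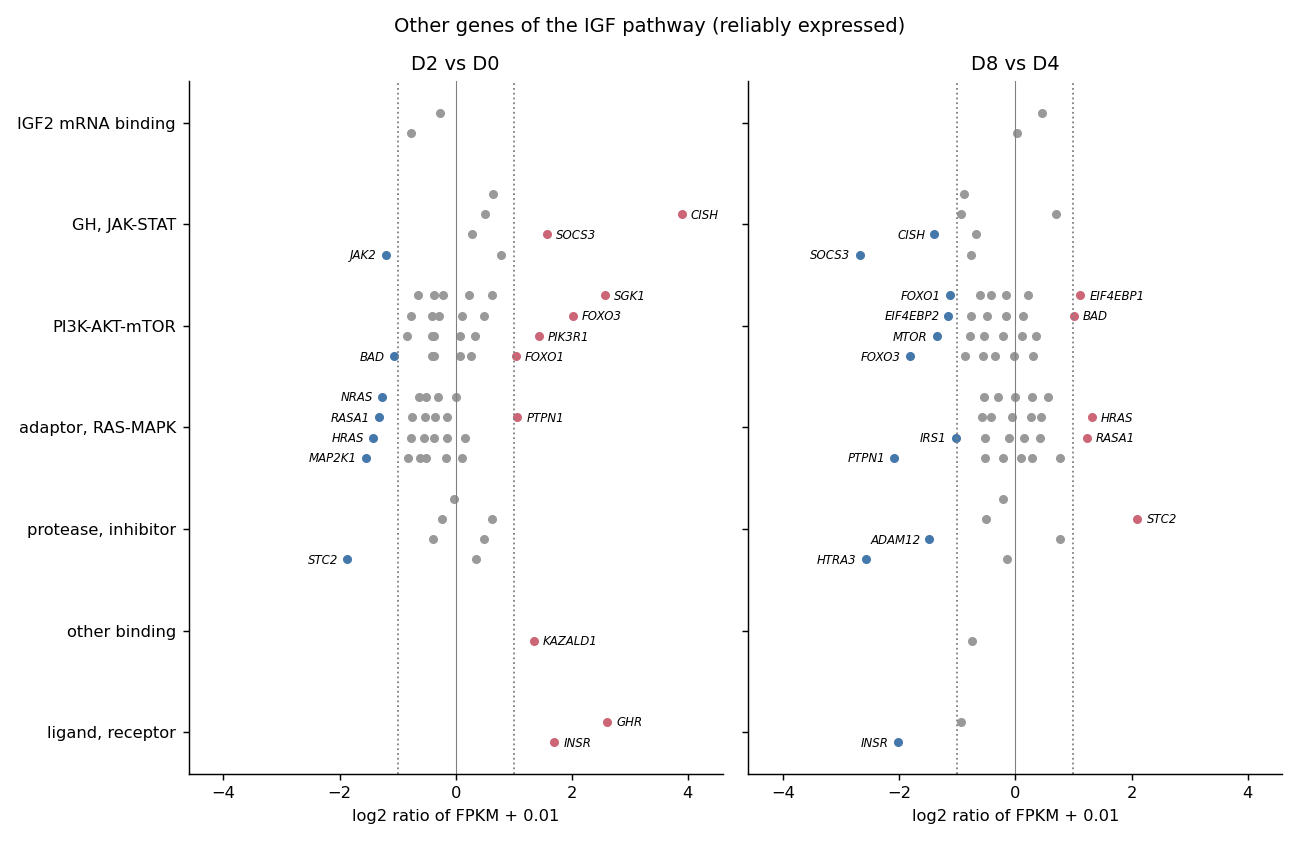
log2 ratios of FPKM + 0.01 of the reliably expressed genes of the IGF pathway other than the 9 members, by group, at D2 vs D0 and at D8 vs D4, comparisons with no shared library; points at least 2-fold up are red, those at least 2-fold down are blue, and both are named. INSR, FOXO1, FOXO3, PTPN1, CISH and SOCS3 are up in the first and down in the second, and STC2, HRAS, RASA1 and BAD are down in the first and up in the second.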

How the data were processed

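Per the labels and the methods of the study, rRNA-depleted strand-specific libraries, 1 per stage from the pooled RNA of 3 piglets, were aligned by the authors to Sscrofa11.1 with HISAT2 2.0.5 (mRNA, lncRNA) and BWA (circRNA). The deposited mRNA and lncRNA values are FPKM, and the deposited circRNA values are SRPBM, back-splice junction reads scaled to the number of mapped reads. The counting tool and whether counting used strand are not given in the sources used here.

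Ratios were taken on log2(FPKM + 0.01), which understates changes of low genes, for genes with an FPKM of at least 1 in at least 3 of 4 libraries, and a ratio of at least 2 was called. The false discovery rate that the study added to its fold threshold was not used here, and the pseudocount is an addition. Library totals were recovered from tRNA rows whose length equals their span, and the reads behind each FPKM from the shortest gene length giving whole reads in all 4 libraries (tolerance 0.005). A multiple of that length would give whole reads too, so an interval may be wider than counting error. The recovered reads came to 98.9% to 99.1% of the totals, and SRPBM steps gave whole junction reads for 100% of values (tolerance 0.02). Intervals are exact Poisson for levels and exact conditional binomial for ratios (SciPy 1.17.1, NumPy 2.4.6, pandas 2.3.3, Python 3.11.15, Matplotlib 3.10.9). No test was possible with 1 library per group. On simulated counts in 4 libraries, reads were recovered for 96.8% of the 1000 genes checked, and 100% of 200 genes changed 4-fold were called. The simulated noise was counting error only, under which a 4-fold change is nearly certain to be called. The simulation therefore says nothing about differences between cultures or piglets.

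Names and positions matched the RefSeq table of Sscrofa11.1 for 20259 of 22944 FPKM rows. The members and lists were chosen with earlier results of these data known. Named were all members, IGF2, INSR, the other binding proteins with their proteases and inhibitors, list genes past 2-fold in at least 3 of 5 comparisons, and the 3 genes most alike to each member. GHR, CISH and the other named pathway genes came from that rule, and marker and glucocorticoid genes from lists. The alternatives were other pseudocounts (0.1 and 1), filters, fold thresholds (1.5) and scalings, with the TPM scaling of all-gene counts chosen after seeing the data. No sequence is printed.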

Additional observations from a re-analysis of the deposited data

How the results depend on the processing

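No paired analysis was possible because each stage is 1 pooled library, and no replicate could be left out. Of the member counts, those as deposited were 2 up and 1 down at D2 against D0 and at D4 against D0, and 1 up and 2 down at D8 against D4. A pseudocount of 1 left 1 up at D2 against D0 (IGF1, with IGF2R at 0.79) and 1 down at D8 against D4 (IGF1, with IGF2R at -0.99), as its construction shrinks low values. A 1.5-fold threshold gave 3 up (IGFBP4 added) and 3 down (IGF1R, IGFBP5 and IGFBP6) at D2 against D0 and 2 down at D4 against D0 (IGF1R and IGFBP5). Dropping the filter added IGFBP3, up at D2 and D4 against D0 and down at D8 against D4, which makes 3 genes in each of these directions. None of the called ratios reversed under the pseudocounts or scalings run. Of 45 member ratios, 45 stayed within their counting interval with a pseudocount of 0.1, 30 with a pseudocount of 1, 20 with median-ratio scaling and 31 with TPM scaling, and 4 and 2 small ratios changed sign under the 2 scalings. For all genes, dropping the filter raised the genes past 2-fold from 1545, 467, 1335, 1768 and 669 (D2 against D0, D4 against D2, D8 against D4, D4 against D0, D8 against D0) to 4793, 3020, 4480, 5221 and 3510, and a pseudocount of 1 gave 271 at D4 against D2, 766 at D8 against D4 and 414 at D8 against D0. 

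The shares of the binding proteins depend on what is summed. With IGFBP7 left out, IGFBP2 took 63.4%, 58.1%, 64.9% and 66.4% from D0 to D8, IGFBP4 26.5%, 39.1%, 31.6% and 24.6%, IGFBP5 7.89%, 1.49%, 1.62% and 7.16%, IGFBP6 2.13%, 1.20%, 1.51% and 1.76%, and IGFBP3 0.168% at D2 and 0.350% at D4. As shares of reads, not corrected for length, IGFBP2 took 55.4%, 53.0%, 60.2% and 57.8%, IGFBP4 13.1%, 20.1%, 16.5% and 12.1%, IGFBP5 4.82%, 0.947%, 1.05% and 4.35%, IGFBP6 2.03%, 1.20%, 1.53% and 1.67%, and IGFBP7 24.6% at D0, 20.5% at D4 and 24.1% at D8. IGFBP5 was low at D2 and D4 in each version. Depth limits IGFBP3, with at most 107 reads, and the circRNA of IGF1R, with at most 111 junction reads.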
